A study of Mus musculus with 6 samples.

Results

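The genes described here make, remove or carry phosphate and pyrophosphate at the surface of mineral-forming cells, together with other members of the ENPP family of ectoenzymes. The group is defined by gene symbol and not by a threshold on any measured value, and holds 10 of the 17830 genes in the deposited count table: the phosphatases Alpl and Phospho1, the ectonucleotide pyrophosphatases Enpp1 to Enpp5, the phosphate carriers Slc20a1 and Slc20a2, and the 5′-nucleotidase Nt5e. All 10 passed the filter on low counts that left 13484 genes for testing.

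RNA was sequenced from cells described as cultured skull osteoblasts of C57BL/6J mice, aged 6 months and described as male. There were 3 libraries of control genotype (mOCN-Cre; Ai9) and, against them, 3 of APPswe genotype (TgAPPswe mOCN-Cre; Ai9). Both groups carried mOCN-Cre, an iCre joined by a P2A peptide to the endogenous osteocalcin gene Bglap, and Ai9, a reporter that makes tdTomato after Cre has acted. APPswe mice carried in addition a human APP transgene with the Swedish mutation, driven by the ubiquitous CAG promoter and held silent by a loxP-flanked stop cassette until Cre removes it. In both groups cells are described as growing out of skull fragments for 2 weeks before replating. The outgrowth medium held β-glycerophosphate at 10 mmol/L, with ascorbic acid-2-phosphate at 50 µmol/L. Cells positive for tdTomato were then sorted for RNA. The replating medium is described without either supplement. Replicates 1, 2 and 3 had total counts of 17649704, 18134411 and 18398392 in control and of 17263757, 17555489 and 17483141 in APPswe. Nothing in the labels says whether the libraries of a group came from separate mice or cultures, so the p-values measure the spread between these libraries, which may be technical.

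Bone mineral grows where phosphate is plentiful and pyrophosphate, which blocks crystal growth, is scarce. ENPP1 cleaves extracellular ATP to pyrophosphate, tissue-nonspecific alkaline phosphatase (encoded by Alpl) splits pyrophosphate into phosphate, and PHOSPHO1 releases phosphate from phosphocholine and phosphoethanolamine inside the vesicles where the first crystals form. The carriers PiT-1 and PiT-2, encoded by Slc20a1 and Slc20a2, bring phosphate into cells together with sodium, and β-glycerophosphate in osteoblast medium is an organic phosphate that alkaline phosphatase can cleave.

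Control replicate 2 stood apart from the other libraries and is left out in a separate fit, given beside each test of genotype. The median absolute difference in log2 CPM (CPM being counts scaled to a common library size with TMM factors) over the genes tested was 0.124 between control replicates 1 and 3, but 0.292 between replicates 1 and 2 and 0.301 between replicates 2 and 3. Between APPswe libraries it ranged from 0.0698 to 0.142. Control replicate 2 had 1 count for Bglap, the gene that carries the Cre, where the other libraries had 115 to 204. It also had 2 counts over 4 Y-linked genes, where the others had 2257 to 3406, although the mice are described as male. This library therefore goes against its description on both marks. Its library name has an S where the other 5 have an L, and the labels do not say what these letters mean. The human transgene was not counted separately. Mouse App did not pass the threshold at -0.11 log2 units (edgeR adjusted p = 0.507), or at 0.0051 without control replicate 2 (edgeR adjusted p = 0.953). The counts therefore do not check the APPswe label.

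With all 6 libraries, Enpp3 was higher and Enpp4 and Enpp5 were lower in APPswe than in control libraries. At an edgeR adjusted p of at most 0.05 this made 1 of 10 genes higher, against 10.5% of all genes tested, and 2 of 10 lower, against 12.0%. With a change of at least 2-fold required as well, 1 of 10 was higher (Enpp3), against 3.74%, and 1 of 10 lower (Enpp5), against 3.60%. Without control replicate 2, Alpl, Enpp1 and Enpp3 were higher, 3 of 10 against 23.3% of 13753 genes tested, and Phospho1, Enpp2, Enpp4, Enpp5 and Slc20a1 were lower, 5 of 10 against 25.0%. With the 2-fold limit, 1 of 10 was higher without that library (Enpp3), against 4.87%, and 3 of 10 were lower (Enpp2, Enpp4 and Enpp5), against 6.58%. The groups did not overlap for 6 of 10 genes, against 45.0% of all genes, and for 9 of 10 without control replicate 2, against 66.2%. The median log2 fold change of the 10 genes was -0.27, beside -0.0033 for all genes tested, and -0.17 beside 0.015 without that library. The sequenced cells were not counted, so fewer cells of a type and less RNA per cell cannot be told apart in any of these values.

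**Figure D1:**
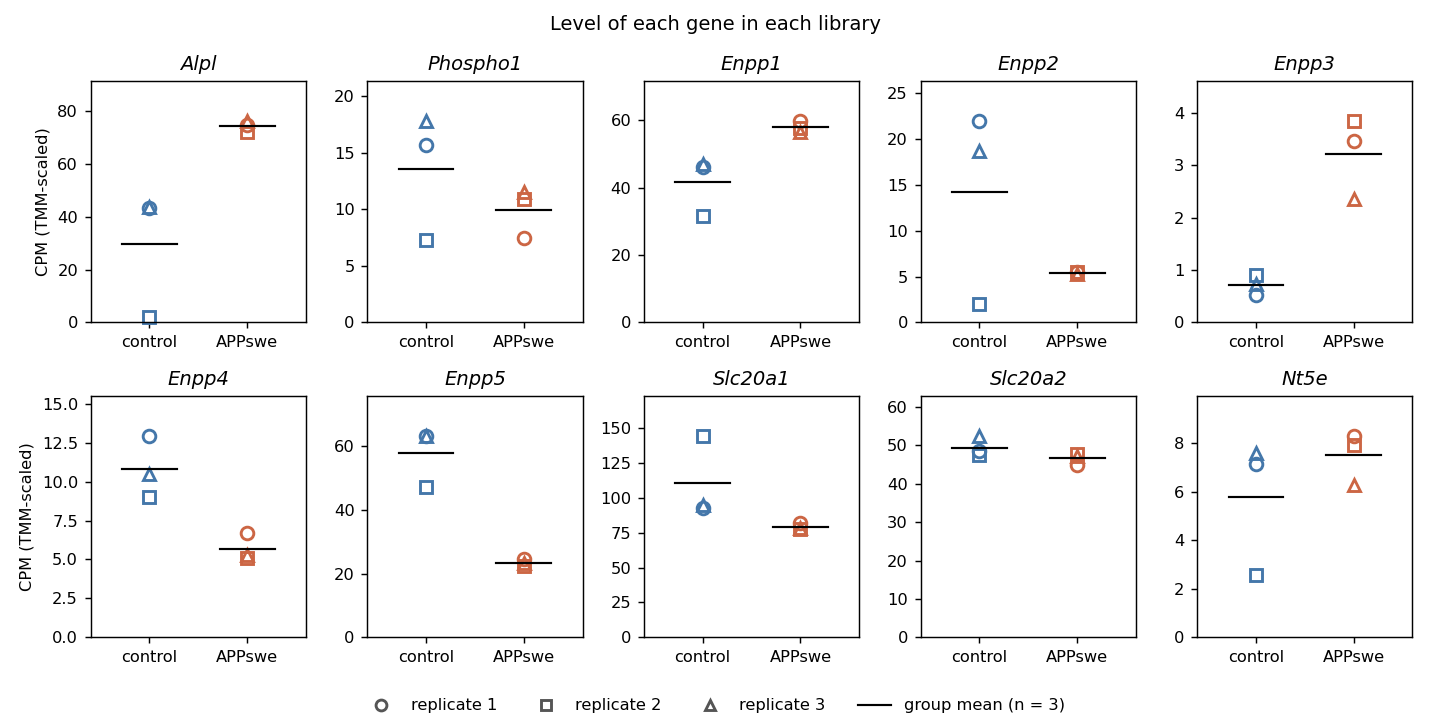
Level of each of the 10 genes in each library, in CPM on axes that start at 0, with circles, squares and triangles for replicates 1, 2 and 3 and a line for the mean of each group. Control replicate 2 lies far below the other controls for Alpl and Enpp2 and above them for Slc20a1. The genotypes do not overlap for Alpl, Enpp1, Enpp3, Enpp4, Enpp5 and Slc20a1.

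**Figure D2:**
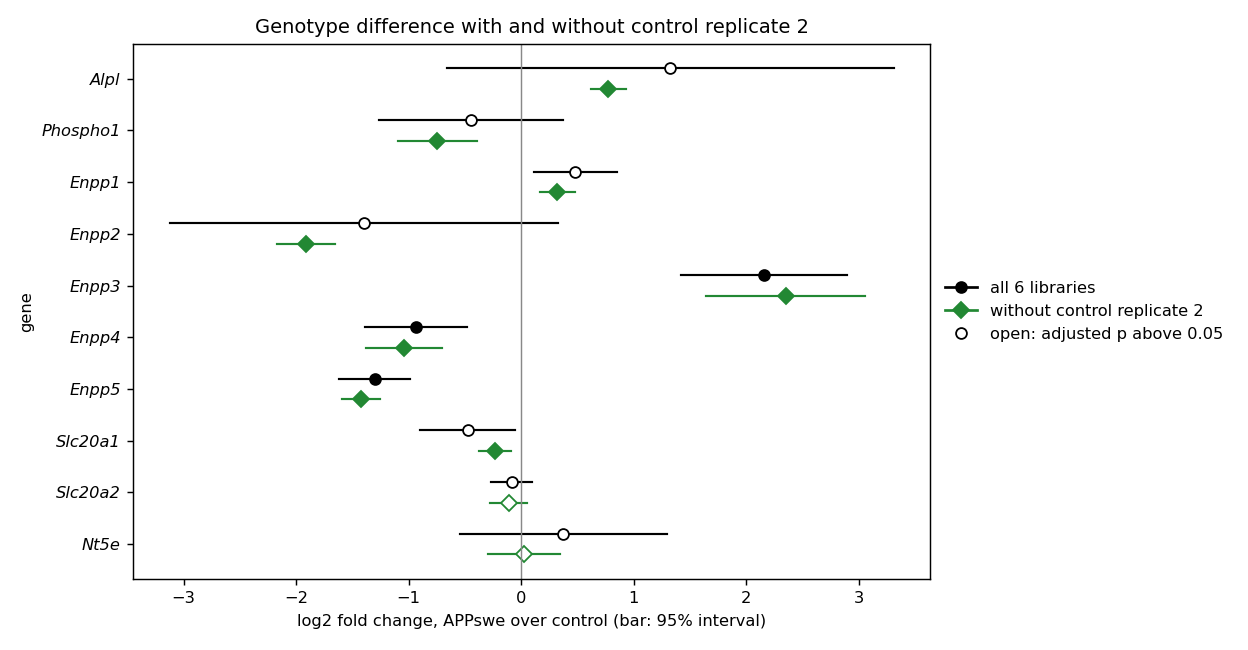
Log2 fold change of APPswe over control for each gene with its 95% interval, from all 6 libraries (circles) and without control replicate 2 (diamonds), filled where the edgeR adjusted p was at most 0.05. The number of filled symbols goes from 3 to 8 when that library is left out, and no estimate changes sign.

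Alpl, the phosphatase that removes pyrophosphate, was counted at 43.4, 1.97 and 43.7 CPM in control replicates 1, 2 and 3 and at 74.7, 72.1 and 76.3 CPM in APPswe replicates 1, 2 and 3. The APPswe libraries were close together and all above the controls, and control replicate 2 was 22.1-fold below the mean of the other controls. Its log2 fold change was 1.32 with a standard error of 0.83 and a 95% interval from -0.66 to 3.31, and did not pass (edgeR adjusted p = 0.291). Without control replicate 2 it was smaller, at 0.77 with a standard error of 0.07, or 1.71-fold higher (edgeR adjusted p = 7.14e-06). That standard error measures only the spread between the remaining libraries, which may be technical. The size and the call for Alpl thus rested on whether that library was used.

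Phospho1, the vesicle phosphatase, was at 15.6, 7.25 and 17.8 CPM in control and at 7.46, 10.9 and 11.5 CPM in APPswe libraries. Control replicate 2 was the lowest of the 6 libraries, so the groups overlapped, while the other controls were above every APPswe library. The log2 fold change was -0.45 with a standard error of 0.34 (edgeR adjusted p = 0.387), and -0.75 with a standard error of 0.16 without control replicate 2 (edgeR adjusted p = 0.00299). With that library left out, the 2 phosphatases therefore passed the threshold in opposite directions. Phospho1 overlaps Abi3 on chromosome 11, and the sources used here do not say whether counting used strand, so reads of the pair may not be separable. Abi3 itself had 400, 626 and 475 counts in control and 491, 598 and 533 in APPswe libraries.

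Of the 5 ENPP genes in the group, 4 lie in neighbouring pairs, and Enpp2 lies apart on chromosome 15. Enpp1 and Enpp3 are neighbours on the minus strand of chromosome 10 (GRCm38, 24637914 to 24712159 and 24773814 to 24836195), 61654 bases apart with no annotated gene wholly between them. Enpp5 and Enpp4 are neighbours on chromosome 17 (44078802 to 44086567 on the plus strand and 44096307 to 44105809 on the minus strand), 9739 bases apart, again with no gene wholly between. The promoters of Enpp1, Enpp3 and Enpp4 are shown because the fold changes of each pair had the same sign, although Enpp1 did not pass the threshold with all libraries in the main fit, with the upstream Alpl promoter because Alpl differed most between control libraries. Each is the 250 bases before the start in RefSeq (GRCm38.p6, minus strand, written 5′ to 3′), at chr10:24712160-24712409 for Enpp1, chr10:24836196-24836445 for Enpp3, chr17:44105810-44106059 for Enpp4 and chr4:137796385-137796634 for Alpl. RefSeq promoters were found for 7 of the 10 genes. Capitals mark matches, on either strand, to the GC box (GGGCGG), the CCAAT box (spelled CCAAT), the TATA box (TATAAA), a RUNX motif (TGTGGT) or an AP-1 motif (TGANTCA).
Enpp1: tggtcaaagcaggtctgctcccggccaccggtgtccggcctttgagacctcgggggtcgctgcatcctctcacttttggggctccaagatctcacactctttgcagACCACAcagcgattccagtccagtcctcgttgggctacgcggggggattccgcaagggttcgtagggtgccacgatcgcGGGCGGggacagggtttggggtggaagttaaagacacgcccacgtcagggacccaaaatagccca
Enpp3: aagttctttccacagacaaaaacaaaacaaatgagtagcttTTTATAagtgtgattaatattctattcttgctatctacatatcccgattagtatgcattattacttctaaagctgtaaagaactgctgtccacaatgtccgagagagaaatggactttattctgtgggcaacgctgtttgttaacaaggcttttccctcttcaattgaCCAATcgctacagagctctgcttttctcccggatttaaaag
Enpp4: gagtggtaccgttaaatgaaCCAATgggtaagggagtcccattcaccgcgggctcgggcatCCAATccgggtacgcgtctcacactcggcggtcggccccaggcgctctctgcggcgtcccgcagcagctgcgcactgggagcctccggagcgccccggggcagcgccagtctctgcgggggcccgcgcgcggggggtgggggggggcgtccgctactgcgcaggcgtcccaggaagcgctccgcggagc
Alpl: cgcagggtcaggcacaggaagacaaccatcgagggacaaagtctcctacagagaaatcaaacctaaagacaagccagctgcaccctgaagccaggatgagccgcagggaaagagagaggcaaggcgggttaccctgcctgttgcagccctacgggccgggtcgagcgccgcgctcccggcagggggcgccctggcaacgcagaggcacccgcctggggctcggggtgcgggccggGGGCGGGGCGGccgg

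The Enpp1 window held 1 GC box and 1 RUNX match, and the Enpp3 window 1 TATAAA match and 1 CCAAT match, with no motif in common. Enpp4 had 2 CCAAT matches, and the Alpl window had 2 overlapping GC boxes next to the start. Among 32851 promoters of the same length, GGGCGG was found in 32.7%, CCAAT in 33.8%, TATAAA in 12.4%, TGTGGT in 14.0% and TGANTCA in 6.75%. A match to these letters is a description and not a binding site. Alpl has another promoter entry, starting within the gene, and counts per gene do not say which start was used.

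Enpp1, the main source of extracellular pyrophosphate, was at 46.1, 31.6 and 46.9 CPM in control and 59.7, 57.7 and 56.4 CPM in APPswe libraries. Every APPswe library was above every control, and control replicate 2 was the lowest. The log2 fold change of 0.48 with a standard error of 0.15 missed the threshold (edgeR adjusted p = 0.0678), and that of 0.32 with a standard error of 0.07 without control replicate 2 passed it (edgeR adjusted p = 0.00348), so a smaller difference was called once the spread between controls was smaller. Enpp1 also passed with all libraries under DESeq2 (adjusted p = 0.0303) and without TMM scaling (edgeR adjusted p = 0.0428), and its adjusted p over 15 alternatives ran from 0.00348 to 0.178.

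Enpp3, a cell-surface nucleotide pyrophosphatase best known from basophils and mast cells, had the fewest counts of the 10 genes in every library, with 9, 16 and 13 counts in control and 62, 69 and 42 counts in APPswe libraries. This was 0.520, 0.899 and 0.734 CPM in control and 3.48, 3.84 and 2.36 CPM in APPswe libraries, above the floor of 3 counts, or about 0.17 CPM, in each. The groups did not overlap, and control replicate 2 lay with the other controls. Enpp3 had a log2 fold change of 2.16 with a standard error of 0.31, or 4.46-fold higher (edgeR adjusted p = 0.00517), and 2.35 without control replicate 2 (edgeR adjusted p = 0.000145). Of 8 mast cell and basophil markers, 6 were matched to a row, and their summed level was 8.37, 1.12 and 7.28 CPM in control and 8.52, 7.69 and 8.26 CPM in APPswe libraries. Most of it was Mcpt8, at 5.14, 1.07 and 4.57 CPM in control and 8.02, 7.24 and 7.70 CPM in APPswe libraries (log2 fold change 1.09, edgeR adjusted p = 0.159; 0.66 and 0.00233 without control replicate 2). Kit went the opposite way, with 54, 1 and 45 counts in control and 7, 5 and 9 counts in APPswe libraries, and was tested only without control replicate 2 (log2 fold change -2.83, edgeR adjusted p = 1.77e-05). Fcer1a had 0 counts in 5 libraries and 1 in the other, and Cpa3 had 2 counts in control replicate 1 and 0 elsewhere. The part of these cells in the Enpp3 result was not tested.

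Enpp4, which cleaves dinucleoside polyphosphates, was at 12.9, 9.05 and 10.5 CPM in control and at 6.67, 5.07 and 5.28 CPM in APPswe libraries. The groups did not overlap, and control replicate 2 was the lowest control but still above each APPswe library. The log2 fold change was -0.93 with a standard error of 0.19 (edgeR adjusted p = 0.0171), and -1.04 with a standard error of 0.15 without control replicate 2 (edgeR adjusted p = 0.000241). The call was lost without APPswe replicate 2 (edgeR adjusted p = 0.0866) and without APPswe replicate 3 (edgeR adjusted p = 0.0850), at log2 fold changes of -0.85 and -0.88, and over 15 alternatives the adjusted p ran from 0.000241 to 0.0866. Enpp4 overlaps the non-coding gene Gm34917, with the same limit as for Phospho1.

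Enpp5, a less studied membrane-bound family member, was at 63.1, 47.3 and 63.2 CPM in control and 24.7, 22.5 and 23.2 CPM in APPswe libraries. Each APPswe library was below each control by a margin wider than the spread of either group. The difference on the log2 scale was -1.30 with a standard error of 0.13, or 2.47-fold lower (edgeR adjusted p = 0.00162), and -1.43 with a standard error of 0.08 without control replicate 2 (edgeR adjusted p = 1.3e-07). Enpp5 passed the threshold in all 15 alternatives run, with log2 fold changes from -1.43 to -1.16.

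Enpp2 encodes autotaxin, a secreted enzyme that makes the lipid mediator lysophosphatidic acid and takes no known part in making pyrophosphate for mineral. It was at 21.9, 2.02 and 18.7 CPM in control and 5.49, 5.46 and 5.23 CPM in APPswe libraries. The APPswe libraries lay between control replicate 2, which was lowest, and the other controls, which were highest. The log2 fold change was -1.40 with a standard error of 0.72 (edgeR adjusted p = 0.208), and -1.91 with a standard error of 0.12, or 3.76-fold lower, without control replicate 2 (edgeR adjusted p = 3.51e-07). Of the 9 receptors and phosphatases of lysophosphatidic acid, 8 were tested, and 0 were higher and 2 lower at an edgeR adjusted p of at most 0.05, or 2 higher and 3 lower of 9 tested without control replicate 2. Of all genes tested, 10.5% were higher and 12.0% lower, or 23.3% and 25.0% without that library. Lpar5, a receptor, was at 23.4, 23.7 and 27.6 CPM in control and 10.9, 10.8 and 11.2 CPM in APPswe libraries (log2 fold change -1.18, edgeR adjusted p = 0.00122; -1.21 and 4.18e-06 without control replicate 2). Plpp2, a lipid phosphatase, was the other gene that fell (log2 fold change -0.43, edgeR adjusted p = 0.0438; -0.44 and 0.00793 without that library), while Plpp1, the most abundant per length, differed by 0.16 on the log2 scale (edgeR adjusted p = 0.465; 0.0100 and 0.907 without it).

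The phosphate carriers showed small differences. Slc20a1 (PiT-1) was at 92.6, 144 and 94.9 CPM in control and 82.1, 77.8 and 78.6 CPM in APPswe libraries. Every APPswe library was below every control, and control replicate 2 was the highest library, the opposite of its place for Alpl. On the log2 scale the difference was -0.48 with a standard error of 0.18 (edgeR adjusted p = 0.0977), and -0.23 with a standard error of 0.06, or 1.18-fold lower, without control replicate 2 (edgeR adjusted p = 0.0124). Slc20a2 (PiT-2) was at 48.5, 47.4 and 52.4 CPM in control and 44.9, 47.7 and 47.4 CPM in APPswe libraries. Its groups overlapped, and its log2 fold change of -0.08 had a 95% interval from -0.27 to 0.10 (edgeR adjusted p = 0.467), or -0.11 from -0.28 to 0.05 without control replicate 2 (edgeR adjusted p = 0.247). Slc20a2 overlaps Smim19 on chromosome 8, with the same limit as for Phospho1.

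Of 11 further genes of phosphate transport and its hormonal control, 6 were tested, with 1 higher and 1 lower, and 2 higher and 3 lower without control replicate 2. The shares of all genes tested were 10.5% higher and 12.0% lower, or 23.3% and 25.0% without that library. Vdr, the vitamin D receptor, was at 77, 266 and 90 counts in control and 811, 888 and 870 counts in APPswe libraries (log2 fold change 2.55, standard error 0.45, edgeR adjusted p = 0.00996; 3.33 and 6.05e-09 without control replicate 2). Galnt3, which glycosylates and protects the phosphate hormone FGF23, was lower (log2 fold change -1.25, edgeR adjusted p = 0.00694; -1.22 and 0.000314 without that library). Fgf23 itself had between 0 and 3 counts in every library. Slc25a3, the mitochondrial phosphate carrier and the most abundant of the list per length, differed by -0.07 on the log2 scale (edgeR adjusted p = 0.483; -0.08 and 0.246 without that library).

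Nt5e, which turns extracellular AMP into adenosine and phosphate, was at 7.16, 2.59 and 7.62 CPM in control and 8.30, 7.91 and 6.29 CPM in APPswe libraries. Apart from control replicate 2, which was lowest, the groups overlapped. Nt5e had a log2 fold change of 0.37 with a 95% interval from -0.55 to 1.29 (edgeR adjusted p = 0.519), and 0.02 from -0.30 to 0.35 without that library (edgeR adjusted p = 0.901). Of 20 genes of pyrophosphate export, other ectonucleotidases and purine signalling, listed under 21 symbols because Ank and Ankh name the same gene, 15 were tested, with 2 higher and 2 lower, none of them by 2-fold, and 3 higher and 2 lower without control replicate 2. The shares of all genes tested were 10.5% higher and 12.0% lower, or 23.3% and 25.0% without that library. Ank, the mouse gene of the exporter that brings pyrophosphate or its source ATP out of cells, had 2178, 2191 and 2119 counts in control and 1741, 1706 and 1741 counts in APPswe libraries (log2 fold change -0.34, edgeR adjusted p = 0.0121; -0.34 and 0.00127 without that library). Control replicate 2 lay with the other controls here. P2rx7, an ATP-gated channel, was also lower, at -0.34 on the log2 scale (edgeR adjusted p = 0.0199; -0.37 and 0.00135 without it). The nucleoside carrier Slc29a1 (0.70, edgeR adjusted p = 0.0204; 0.56 and 0.000264 without it) and the ATP release channel Panx1 (0.56, edgeR adjusted p = 0.0108; 0.50 and 0.000843 without it) were higher on the same log2 scale.

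Levels can be compared between genes only per transcript length, for which the deposited FPKM values were used (fragments per kilobase of transcript, scaled to sequencing depth). In APPswe libraries the order was Slc20a1 at 39.9 ± 1.37 FPKM (SD, n = 3), Alpl at 35.4 ± 1.11, Slc20a2 at 14.1 ± 0.314, Enpp5 at 9.69 ± 0.700, Enpp1 at 9.38 ± 0.365, Phospho1 at 6.17 ± 1.30, Nt5e at 2.32 ± 0.344, Enpp2 at 1.79 ± 0.0586, Enpp4 at 1.37 ± 0.229 and Enpp3 at 1.30 ± 0.316. The ranges of neighbours in this order did not overlap, except for Enpp5 with Enpp1 and Enpp4 with Enpp3. In control libraries Slc20a1 was again highest, at 49.2 ± 9.17 FPKM (SD, n = 3), followed by Enpp5 at 23.1 ± 3.57, and Enpp3 was lowest at 0.273 ± 0.0702. Between them came Slc20a2 at 14.2 ± 0.601, Alpl at 13.4 ± 10.8, Phospho1 at 7.98 ± 3.25, Enpp1 at 6.41 ± 1.44, Enpp2 at 4.55 ± 3.42, Enpp4 at 2.48 ± 0.450 and Nt5e at 1.69 ± 0.810, and neighbours among these 7 had overlapping ranges over the libraries. That overlap rested on control replicate 2, which had 0.900 FPKM of Alpl where the other controls had 19.8 and 19.5. In control replicates 1 and 3 alone, Alpl came above Slc20a2, at mean FPKM of 19.7 and 14.5, the other genes kept their order, and the ranges of neighbours did not overlap. Enpp5 thus stood above Alpl in control replicates 1 and 3, at a mean of 25.2 against 19.7 FPKM, and below it in the APPswe libraries.

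**Figure D3:**
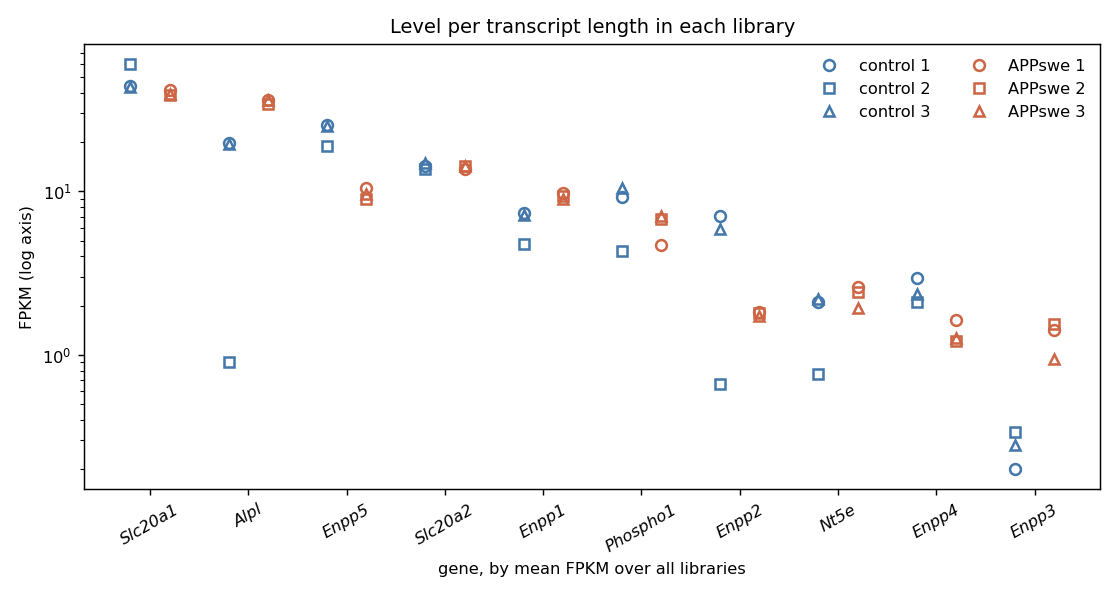
FPKM of each gene in each library on a log axis, with genes ordered by their mean over all libraries, control libraries on the left of each pair and APPswe libraries on the right. Slc20a1 is highest and Enpp3 lowest in control libraries, and the low control square of Alpl, Enpp2 and Nt5e is control replicate 2.

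The balance of the enzyme that removes pyrophosphate to the enzyme that makes it was taken as the log2 ratio of Alpl to Enpp1 counts, which does not depend on library scaling. It was -0.09, -3.99 and -0.10 in control and 0.32, 0.32 and 0.43 in APPswe libraries. The ratio was higher in each APPswe library than in each control, by 1.75 on average, or by 0.45 without control replicate 2. An exact two-sided permutation test over libraries gave p = 0.10 for both, the smallest p that 3 against 3 or 2 against 3 libraries allow, and p = 0.50 when any single APPswe library was left out. The log2 ratio of Slc20a1 to Slc20a2 counts was 0.93, 1.61 and 0.86 in control and 0.87, 0.70 and 0.73 in APPswe libraries, which overlapped. It differed by -0.36 (exact permutation p = 0.20), and by -0.13 without control replicate 2 (exact permutation p = 0.30).

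Another 12214 genes averaged 1 log2 CPM or more, and of these the genes whose centred log2 CPM over the 6 libraries lay closest to Alpl by root mean square distance were Abi3bp at 0.0967, Hoxa11 at 0.222 and Hoxc4 at 0.316. Abi3bp, which encodes an extracellular matrix protein, was at 87.5, 3.54 and 83.2 CPM in control and 162, 143 and 140 CPM in APPswe libraries. Hoxa11 was at 0 counts and Hoxc4 at 1 count in control replicate 2, where the other libraries had 40 to 106 and 99 to 143. Closest to Enpp1 were Fosl2 at 0.0301, Nek1 at 0.0324 and Grb14 at 0.0425. Fosl2, which encodes an AP-1 transcription factor subunit, was at 169, 119 and 166 CPM in control and 216, 206 and 201 CPM in APPswe libraries. Both sets of genes were different when control replicate 2 was left out, an alternative chosen after the values were seen. Over the remaining 5 libraries and 12258 genes, P4ha2 at 0.0242, Tgfbi at 0.0276 and B3gntl1 at 0.0311 were closest to Alpl, and Srek1 at 0.0123, Pus7 at 0.0131 and Mapk1ip1l at 0.0145 to Enpp1. P4ha2, which encodes a subunit of a collagen prolyl hydroxylase, was at 167, 80.7 and 177 CPM in control and 293, 282 and 304 CPM in APPswe libraries.

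The proteins that bind mineral or build matrix vesicles followed more than 1 pattern. Of 16 listed, 13 were tested, with 1 higher and 4 lower, and 2 higher and 9 lower without control replicate 2, with a median log2 fold change of -0.55, or -0.62 without that library. Of all genes tested, 10.5% were higher and 12.0% lower, or 23.3% and 25.0% without that library. Spp1 (osteopontin), an inhibitor of crystal growth that alkaline phosphatase can dephosphorylate, was the most abundant, at 9315, 6092 and 9106 CPM in control and 3691, 3472 and 3544 CPM in APPswe libraries (log2 fold change -1.19, edgeR adjusted p = 0.00466; -1.36 and 1.44e-08 without control replicate 2). Fam20c, the kinase that phosphorylates it, was lower, at -0.996 on the log2 scale (edgeR adjusted p = 0.0158; -1.20 and 3.4e-07 without it) and so was Pdpn, a membrane protein of early osteocytes, at -0.63 (edgeR adjusted p = 0.00177; -0.64 and 7.95e-06 without it). Sparc, a collagen-binding matrix protein, was higher (log2 fold change 0.88, edgeR adjusted p = 0.00192; 0.96 and 3.48e-07 without it).

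Ibsp, Dmp1 and Bglap, which mark mineralizing cells, showed the low value of control replicate 2 that Alpl had. Ibsp had 1468, 3 and 1371 counts in control and 985, 943 and 940 in APPswe libraries. Dmp1 had 261, 2 and 254 counts in control and 12, 16 and 14 in APPswe libraries. Without control replicate 2, Alpl was higher in APPswe libraries while Ibsp (log2 fold change -0.60, edgeR adjusted p = 6.11e-05), Dmp1 (-4.21, edgeR adjusted p = 1.44e-08) and Bglap (-0.46, edgeR adjusted p = 0.0337) were lower, and with all libraries none of the 4 passed (edgeR adjusted p = 0.291 for Alpl, 0.994, 0.0804 and 0.945 for the others). The osteoblast transcription factor genes Sp7 and Runx2 were higher with all libraries and without that library. Sp7 had 103, 33 and 126 counts in control and 312, 381 and 360 in APPswe libraries (log2 fold change 1.98, edgeR adjusted p = 0.0205; 1.59 and 3.69e-06 without control replicate 2). Runx2 had 344, 497 and 324 counts in control and 589, 618 and 617 in APPswe libraries (log2 fold change 0.63, edgeR adjusted p = 0.0374; 0.84 and 1.72e-05 without it).

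**Figure D4:**
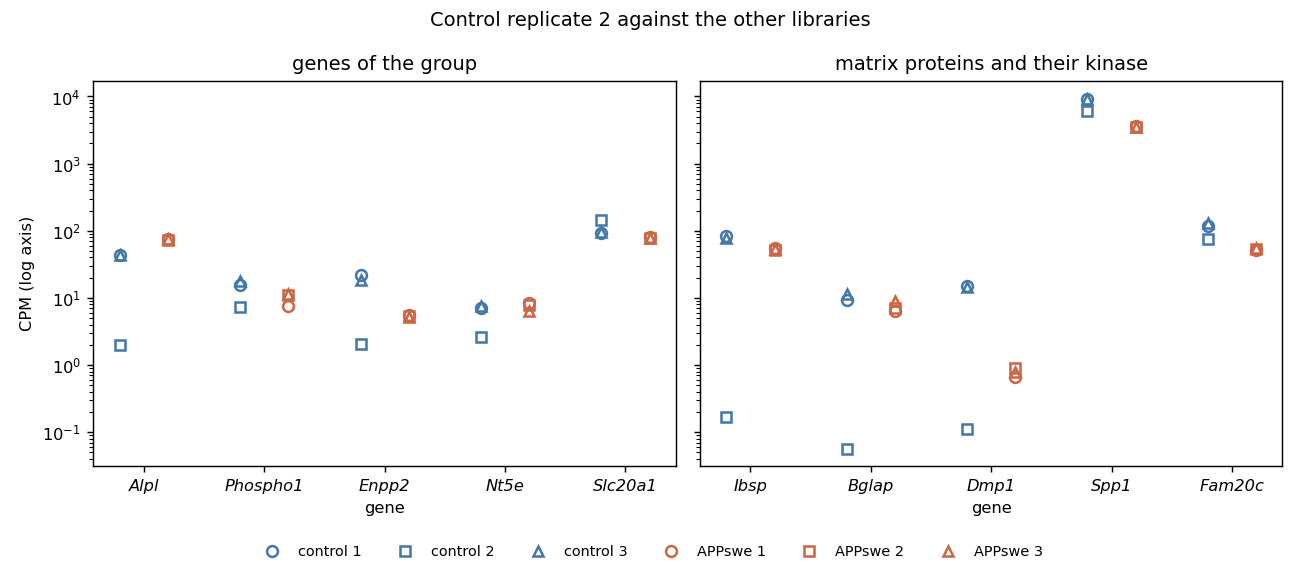
CPM in each library on a log axis for 5 of the 10 genes (left) and for 5 genes of the mineral-binding matrix list, including the kinase Fam20c (right), with control libraries on the left of each pair. The square of control replicate 2 lies far below the other controls for Alpl, Enpp2, Ibsp, Bglap and Dmp1, and above them for Slc20a1.

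Related phosphatases and the remaining ENPP genes gave 2 higher and 1 lower of 8 tested, out of 12 listed, and the same counts without control replicate 2. Among all genes tested, 10.5% were higher and 12.0% lower, or 23.3% and 25.0% without that library. The intestinal and germ cell type alkaline phosphatases Alpi, Akp3 and Alppl2 had at most 1 count in any library, so Alpl supplied nearly all alkaline phosphatase counts. Acp5, the tartrate-resistant acid phosphatase of osteoclasts, was at 6.87, 3.71 and 7.11 CPM in control and 187, 205 and 208 CPM in APPswe libraries (log2 fold change 5.09, standard error 0.24, edgeR adjusted p = 0.000296; 4.84 and 5.31e-10 without that library). Pdxp, a pyridoxal phosphatase, was higher (log2 fold change 0.95, edgeR adjusted p = 0.0179; 0.81 and 0.00131 without it), and Phospho2, the relative of Phospho1, was lower at -0.45 (edgeR adjusted p = 0.0325; -0.50 and 0.00164 without it).

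**Figure D5:**
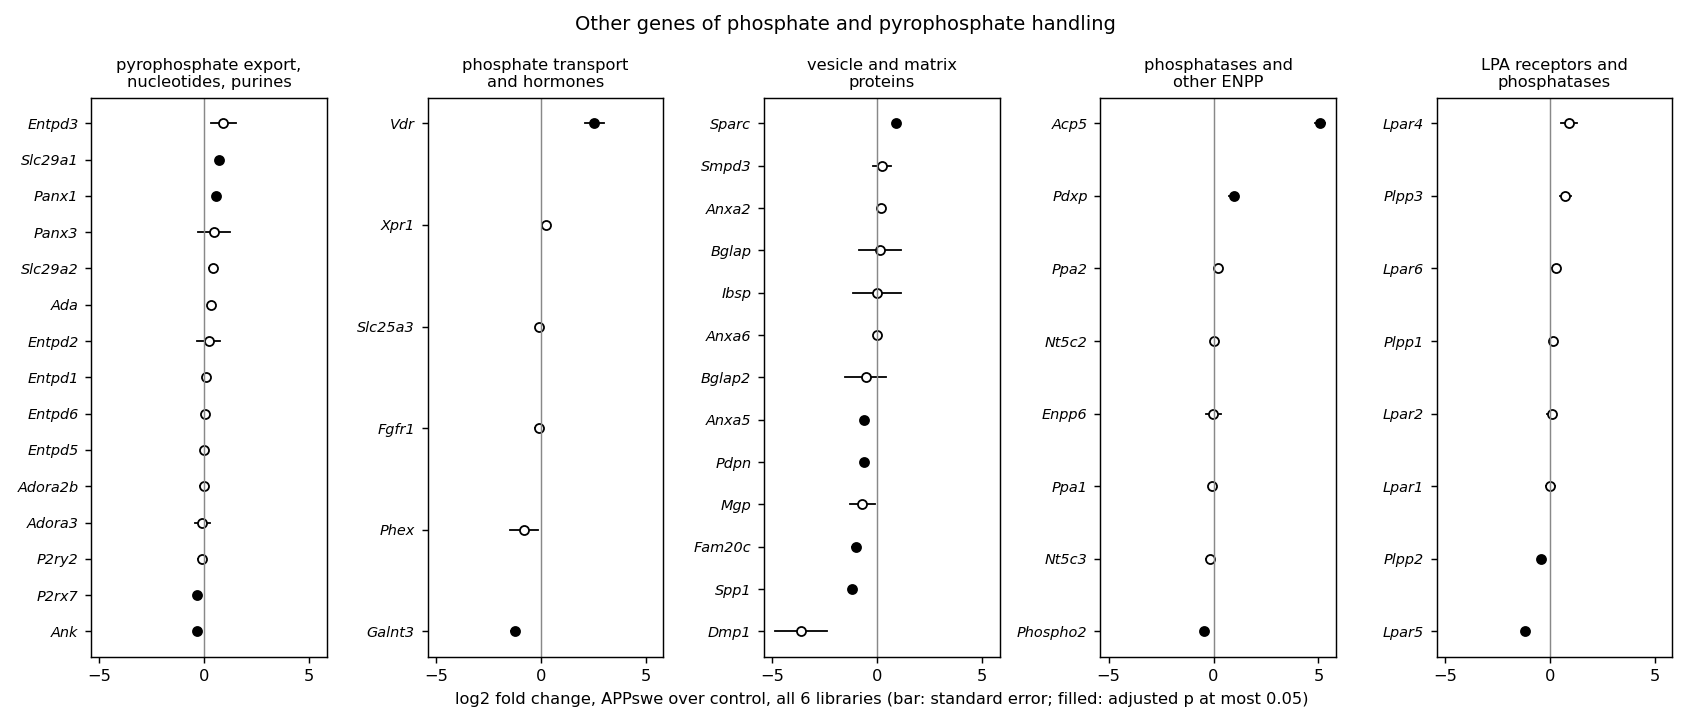
Log2 fold change of APPswe over control with its standard error for the tested genes of the 5 further lists, from all 6 libraries, filled where the edgeR adjusted p was at most 0.05. Acp5 and Vdr are furthest to the right among the filled points, and Galnt3, Spp1 and Lpar5 furthest to the left.

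Markers of other cell types moved with the genotype, and their part in the differences above was not tested. All 13 macrophage markers were measured, and their summed level was 23811, 18323 and 25434 CPM in control and 12748, 13694 and 13813 CPM in APPswe libraries. Most came from Lyz2, at 14794, 9772 and 16084 CPM in control and 7148, 7840 and 7879 CPM in APPswe libraries, and none of the 13 was at 0. At an edgeR adjusted p of at most 0.05, 8 macrophage markers were lower and 1 higher, and 11 lower and 2 higher without control replicate 2. Beside these and the marker counts below, 10.5% of all genes tested were higher and 12.0% lower, or 23.3% and 25.0% without that library. The 12 osteoblast and osteocyte markers summed to 17945, 17572 and 18794 CPM in control and 11554, 12134 and 12182 CPM in APPswe libraries, with Spp1 the most abundant per length, 2 higher and 1 lower (2 and 6 without control replicate 2), and Sost at 0 to 3 counts. A culture sorted for the activity of the Bglap locus therefore held many macrophage transcripts in every library and, in control replicate 2, almost none of Bglap, Ibsp and Dmp1.

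Osteoclast and skeletal muscle markers were higher in APPswe libraries. The 8 osteoclast markers summed to 290, 158 and 274 CPM in control and 730, 731 and 719 CPM in APPswe libraries, with 5 of 7 tested higher and 0 lower (7 and 0 without control replicate 2), Ctsk the most abundant per length, and Calcr at 0 to 3 counts. The 10 muscle markers summed to 2.66, 12.3 and 3.05 CPM in control and 179, 175 and 179 CPM in APPswe libraries, with 9 of 9 tested higher with and without control replicate 2, Myl1 the most abundant per length, and Myod1 and Ckm at 0 counts in control replicates 1 and 3. The 7 endothelial markers summed to 237, 81.8 and 253 CPM in control and 24.3, 24.4 and 25.8 CPM in APPswe libraries, with 2 of 6 tested lower (7 of 7 without control replicate 2), Emcn the most abundant per length, and Tie1 at 0 counts in control replicate 2.

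The 8 fibroblast and stromal markers summed to 4598, 2778 and 4482 CPM in control and 7812, 7702 and 7647 CPM in APPswe libraries, with 3 higher and 1 lower (3 and 3 without control replicate 2), Ly6a the most abundant per length, and none at 0. The 5 chondrocyte markers summed to 306, 183 and 346 CPM in control and 383, 418 and 412 CPM in APPswe libraries, with 1 higher and 0 lower (4 and 0 without control replicate 2), Comp the most abundant per length, and Acan at 0 counts in control replicate 2. Col2a1 and Sox9 were highest among controls in that library, at 2877 counts against 326 and 328, and at 252 counts against 89 and 101. Comp and Col10a1 were lowest there, like Acan, at 117 counts against 4794 and 5616, and at 8 counts against 90 and 74. The 5 adipocyte markers summed to 919, 598 and 802 CPM in control and 687, 661 and 658 CPM in APPswe libraries, with 0 of 4 tested past the threshold under edgeR (0 higher and 3 lower of 5 without control replicate 2), Lpl the most abundant per length, and Adipoq and Plin1 at 0 counts in control replicate 2. Of the mast cell and basophil list 1 gene was tested and did not pass with all libraries, and without control replicate 2, 1 was higher and 1 lower of 2 tested.

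Library names were written in 2 styles, with a hyphen (control replicates 1 and 2, APPswe replicate 1) or without it (control replicate 3, APPswe replicates 2 and 3), and the FPKM columns of the styles have different numbers of blank cells. Within each style the log2 CPM difference between genotypes had the same sign for 9 of the 10 genes. It was 2.85 and 0.76 for Alpl, 1.73 and 1.51 for Enpp3, -0.66 and -0.95 for Enpp4, and -1.13 and -1.45 for Enpp5, for names with and without a hyphen in turn. The exception was Nt5e, at 0.86 and -0.10. With control replicate 2 left out, which changes only the names with a hyphen, their difference became 0.78 for Alpl, 1.96 for Enpp3, -0.91 for Enpp4, -1.34 for Enpp5 and 0.20 for Nt5e, and again 9 of the 10 genes had the same sign in both styles. With so few libraries in each style these are values without a test.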

How the data were processed

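Reads per gene were deposited by the authors as raw counts for 6 libraries, with FPKM values that the authors rounded; blank FPKM cells, in 397 genes for libraries with a hyphen in the name and 716 for the others, were read as 0. The authors' table also holds log2 fold changes and p-values of their own comparison, which were not used. The submitters' processing notes name GRCm38; the aligner and counting tool are not given in the sources used here.

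Analysis used R 4.3.3 and edgeR 4.0.16, with TMM scaling, filterByExpr, quasi-likelihood test of genotype without covariates, and Benjamini-Hochberg adjustment over all genes tested. The standard error was the log2 fold change over the square root of F. Calls used an adjusted p of at most 0.05, alone or with a 2-fold change. Ratios used counts plus 0.5. A floor of 3 counts covers counting error only. The tests were first tested on simulated data. Alternatives were DESeq2 1.42.0, RLE or no scaling, other filters, a replicate block, the name style as covariate, each library left out, and limma 3.58.1 on log2 FPKM plus 1 or 0.1. No 2 libraries agreed within sampling noise, with a chi-square of 1.58 per degree of freedom for APPswe replicates 2 and 3 and 6.25 or more for the other pairs.

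The members, lists and rules were chosen with earlier results of these data known. Named were the 10 genes; from each list of related genes up to 4 with the largest absolute log2 fold change among those past the adjusted p, and the gene with the highest mean FPKM; the 3 genes closest to Alpl and to Enpp1, with and without control replicate 2; and the cell type and label markers. Fgf23, Alpi, Akp3, Alppl2, Abi3, Smim19, Entpd4, Entpd4b and the other Hox genes were added once their values had been seen, and so were the promoter motifs.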

Additional observations from a re-analysis of the deposited data

How the results depend on the processing

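The direction that each of the 10 genes had in the main fit was the same under each alternative that could be run, including those with a library left out. These were 14 for Enpp3 and 15 for each other gene. Enpp3 had 9 counts in control replicate 1 and so was not tested when at least 10 counts were required in every library. Enpp3 passed an adjusted p of 0.05 in 14 of 14 and Enpp5 in 15 of 15, Enpp4 in 13 and Enpp1 in 3, Alpl, Phospho1, Enpp2 and Slc20a1 in 1 each (without control replicate 2), and Slc20a2 and Nt5e in 0 of 15.

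At an adjusted p of 0.05, the number of the 10 genes called higher, 1 in the main result, was 2 with DESeq2 and 2 without TMM scaling (Enpp1 besides Enpp3), where 1510 of 17368 and 1840 of 13484 genes fitted were higher, 0 with at least 10 counts in every library, where 1271 of 12628 were, and 1 to 3 with single libraries left out. The number called lower, 2, was 1 to 5. With 2-fold required, 1 higher gene became 0 with at least 10 counts in every library and 0 with limma on log2(FPKM + 1), which compresses low values; 1 lower gene became 1 to 3. Over all genes tested, with single libraries left out, 480 to 3199 were higher and 536 to 3438 lower, and 281 to 670 and 230 to 905 by 2-fold. By 2-fold, 320 were higher with at least 10 counts in every library and 316 with limma on log2(FPKM + 1), and 185 and 313 were lower with limma on log2(FPKM + 1) and log2(FPKM + 0.1). The most calls came without control replicate 2, except for the 10 genes higher by 2-fold, where the count was 1 as in the main result. The cause of the other shifts was not tested.

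No regular pairing of libraries by replicate number was seen. Deviations from the group means correlated across genes at 0.0736, -0.0364 and 0.158 for numbers 1, 2 and 3. Not every library correlated best with its own number. The control mean includes control replicate 2, so these correlations cannot decide whether libraries were paired. With the replicate block, 933 genes were higher and 1088 lower, 1 and 2 of the 10 among them (Enpp3, and Enpp4 and Enpp5), and it changed no call among the 10.

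The ratio of Alpl to Enpp1 differed by 0.45 to 2.40 on the log2 scale and that of Slc20a1 to Slc20a2 by -0.50 to -0.13 with single libraries left out. The floor of 3 counts is about 0.17 CPM, and Enpp3 was the only one of the 10 genes under 1 CPM in the control libraries. Each group has 3 libraries, so intervals that depend on control replicate 2 are wide.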

Other observations

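Hox genes, which set position along the trunk and limbs, came up among the genes most like Alpl, and the whole family was then counted, a choice made after those values were seen. The 37 Hox genes matched by symbol summed to 183, 13.8 and 182 CPM in control and 173, 176 and 179 CPM in APPswe libraries. In control replicate 2, 16 of them had 0 counts and 33 had under 10, against 7 or 8 under 10 in each of the other libraries. Hoxc10 had 582, 1 and 569 counts in control and 429, 395 and 452 counts in APPswe libraries. Control replicate 2 thus differed from the other 5 libraries in most Hox transcripts, as it did in Bglap, Ibsp and the Y-linked genes. The reason was not tested. Every library is described as coming from skull, and which of them match that origin was not tested either.

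Entpd4, a nucleoside diphosphatase gene of the purine list, had 0 counts in 5 libraries and 162 in APPswe replicate 3, which removed it at the filter. Its near-identical copy Entpd4b had 840, 1108 and 896 counts in control and 1603, 1670 and 1586 counts in APPswe libraries (log2 fold change 0.75, standard error 0.11, edgeR adjusted p = 0.00503; 0.88 and 2.55e-06 without control replicate 2). Counts of such a pair can be split differently between libraries, so the level of either gene alone is uncertain.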
